A study of Mus musculus with 9 samples.

Results

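The pulmonary vascular ion channels described here are 9 genes whose products set the membrane potential and the calcium supply of pulmonary artery smooth muscle and endothelium. They are the potassium channels Kcna5, Kcnk3 and Kcnma1, the transient receptor potential (TRP) channels Trpc1, Trpc6 and Trpv4, the store-operated pair Stim1 and Orai1, and the L-type calcium channel Cacna1c. The members were chosen by name, as every probe set whose single annotated gene symbol is one of the 9, which gave 19 probe sets out of 45037 on the array once controls were set aside, for 9 of 18193 genes. RNA was measured in homogenates of whole right lung from 3 strains of mice, BL6 (C57/BL6), FVB/N and SV129, on single-colour oligonucleotide arrays. The hypoxic groups had spent 4 weeks in hypobaric hypoxia at 50 kPa, with 2 arrays in each strain (BL6, FVB/N and SV129). The normoxic groups were kept at 85 kPa, the air pressure of Denver, with 1 array in each strain. The mice carried no transgene or drug treatment in the labels, and their age is not stated. The labels do not say that arrays of a group came from separate animals, so each p-value measures the spread between these arrays, which may be technical.

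Low oxygen makes pulmonary arteries constrict, in contrast to arteries of most other organs. In the usual account, potassium channels of the smooth muscle cell close, the membrane depolarises, L-type calcium channels open and calcium enters. Calcium also enters through TRP channels and, after the internal stores have emptied, through Orai1 channels that the store sensor Stim1 opens. In homogenised lung, fewer cells of a type and less RNA per cell cannot be told apart.

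Lung identity was clear on every array, with all 9 alveolar epithelial markers that had a probe set past the brightness filter and a mean log2 signal of 13.76 to 14.04 on hypoxic and 13.45 to 13.85 on normoxic arrays. On 2 arrays kidney transcripts were also present. The mean of the 11 readable kidney markers of a list of 14 reached 11.78 on array 2 of hypoxic BL6 and 12.93 on the single array of normoxic FVB/N, while the other 7 arrays had 6.10 to 7.03. Umod, made in the kidney tubule, was at 13.62 and 14.24 on those arrays, against a median of 5.56 on the others. Umod, Miox, Slc12a1, Slc34a1, Slc22a6, Aqp2 and Slc5a12 had medians of 4.69 to 6.01 on the other arrays, under the filter of 6.13. They passed it only through the 2 arrays on which they were high. The too dim markers Slc12a3 (10.06 and 10.94, against a median of 4.48) and Nphs1 (6.87 and 6.85, against 5.79) were also higher there. The normoxic FVB/N array also had a mean of 11.65 over 5 readable muscle genes (Acta1, Ckm, Tnnt3, Mylpf and Cox7a1), against 6.78 to 7.74 elsewhere. These are the readable part of a list of 10 for brown fat and fast muscle, in which the brown fat markers Ucp1 (4.54) and Cidea (4.34) were too dim and not raised on this array. It was also the lowest array in the means of the smooth muscle (9.23), pericyte and fibroblast (11.09), endothelial (11.80), alveolar epithelial (13.45), airway epithelial (10.45) and leukocyte (8.55) lists. It is the sole normoxic array of its strain, so whatever sets it apart cannot be told apart from normoxia in FVB/N, and the members' calls for hypoxia across strains and for strain differences are given with and without both arrays.

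Each of the 9 genes had at least 1 probe set bright enough to read. A signal here is the log2 of the deposited intensity plus 16 after quantile normalization, and a probe set was called readable when its mean over the 9 arrays exceeded 6.13, which leaves out the dimmest 40% of probe sets. By this filter 15 of the 19 probe sets were readable. As a guide to background, 2 of 86 probe sets for olfactory, vomeronasal and taste receptors (2.33%) passed the same filter. The 4 that were too dim were 3 of the 5 probe sets of Kcnma1 (1424848_at at a mean of 5.07, 1440728_at at 4.79 and 1457018_at at 4.41) and 1 of the 3 of Kcnk3 (1425342_a_at at 5.62). Between 14.0% and 84.9% of the receptor probe sets were at least as bright as these, so they were not tested. Just inside the limit lay both readable Kcnma1 probe sets (6.29 and 6.25) and the Kcnk3 probe set 1426058_a_at (6.38). Trpv4 passed at 6.61 only through the arrays with kidney transcripts, since its mean over the other 7 was 6.02, under the limit of 6.11 there. Brightness depends on the probe, so signals were not compared between probe sets.

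**Figure D1:**
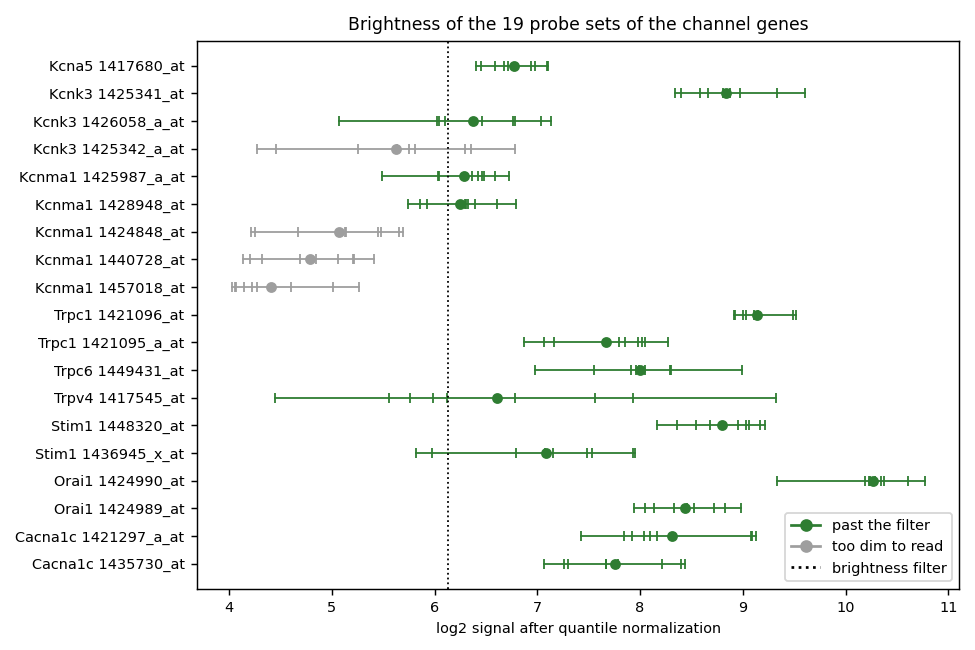
Each row is 1 of the 19 probe sets, with its log2 signal on the horizontal axis, a tick for each of the 9 arrays, a dot for their mean and a line over their range. Dots left of the dotted filter line at 6.13 are the 4 probe sets too dim to read, and Trpv4 has the widest range.

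Among the potassium channels no probe set passed the threshold for hypoxia across strains or for a strain difference. Kcna5 encodes Kv1.5, a voltage-gated channel whose current sets the resting potential of pulmonary artery smooth muscle. Its 1 probe set was at 7.10 and 6.94 on the hypoxic BL6 arrays against 6.68 on the normoxic one, at 6.98 and 7.09 against 6.72 in FVB/N, and at 6.58 and 6.40 against 6.45 in SV129. All but 1 of the 6 hypoxic arrays were above the normoxic array of their strain, while hypoxic and normoxic values overlapped. The hypoxic minus normoxic change was 0.23 ± 0.184 (SE; 95% interval -0.18 to 0.65). By strain, the means were 6.91 ± 0.215 in BL6 and 6.93 ± 0.190 in FVB/N against 6.48 ± 0.094 in SV129 (SD, n = 3 each). Each BL6 and FVB/N array was above every SV129 array, and for 8% of all readable probe sets neither strain overlapped SV129. These differences of 0.43 ± 0.212 (BL6 minus SV129) and 0.45 ± 0.212 (FVB/N minus SV129; SE) missed the threshold at limma adjusted p of 0.374 and 0.341.

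Kcnk3 encodes TASK-1, a pH- and oxygen-sensitive leak channel whose loss-of-function variants are a known cause of heritable pulmonary hypertension. Its brighter probe set, 1425341_at, was at 8.40 and 8.88 on hypoxic against 8.97 on normoxic BL6 arrays, at 9.60 and 8.81 against 8.34 in FVB/N, and at 9.33 and 8.66 against 8.58 in SV129. Hypoxic arrays lay below the normoxic one in BL6 and above it in the other strains. The change across strains was 0.32 ± 0.281 (95% interval -0.32 to 0.95). The probe set 1426058_a_at was at 6.46 and 7.04 on hypoxic against 7.13 on normoxic BL6 arrays, at 6.76 and 6.78 against 5.07 in FVB/N, and at 6.10 and 6.04 against 6.02 in SV129. The outlying value is that of the normoxic FVB/N array. The change of 0.45 ± 0.363 across strains became -0.01 ± 0.266 without the 2 arrays with kidney transcripts. The probe set was highest on the 2 arrays with the highest mean over 12 of 12 readable heart muscle markers, hypoxic BL6 array 5 with a list mean of 10.55 and the normoxic BL6 array with 10.88. Single markers differed in this, and Myh6 was highest on hypoxic SV129 array 5 (12.70). Nppa was at 8.48 on hypoxic BL6 array 5 and at 11.04 on the normoxic BL6 array. Its other values were 4.90 to 6.05, all under the brightness filter. It passed the filter only through these 2 BL6 arrays, and it adds to their high list means. The match between probe set and list mean did not extend to the arrays next in the list mean. Those were hypoxic SV129 array 5 at 10.09 and normoxic FVB/N at 10.03, where the probe set was at 6.04 and 5.07. The brighter probe set 1425341_at was highest on hypoxic FVB/N array 2 (9.60) and hypoxic SV129 array 2 (9.33). Their means of the heart list were 9.88 and 9.61. The list ran from 9.05 to 10.55 over hypoxic and from 9.76 to 10.88 over normoxic arrays. The part of its markers in the Kcnk3 signal was not tested. Kcnk3 is itself expressed in heart.

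Kcnma1 encodes the pore of the large-conductance calcium-activated potassium channel, which repolarises smooth muscle after calcium entry. The readable probe set 1425987_a_at was at 5.48 and 6.04 on hypoxic against 6.48 on normoxic BL6 arrays, at 6.46 and 6.59 against 6.73 in FVB/N, and at 6.36 and 6.04 against 6.42 in SV129. All 6 hypoxic arrays were below the normoxic array of their strain, as was so in 1 direction or the other for 23.3% of the 27022 readable probe sets, and the groups overlapped. The change was -0.38 ± 0.233 (95% interval -0.91 to 0.14). The other readable one, 1428948_at, was at 5.86 and 6.79 against 5.93 in BL6, at 6.33 and 6.60 against 5.74 in FVB/N, and at 6.31 and 6.29 against 6.39 in SV129, a change of 0.34 ± 0.273 in the opposite direction. With 3 further probe sets too dim, the level of Kcnma1 was not resolved on these arrays.

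**Figure D2:**
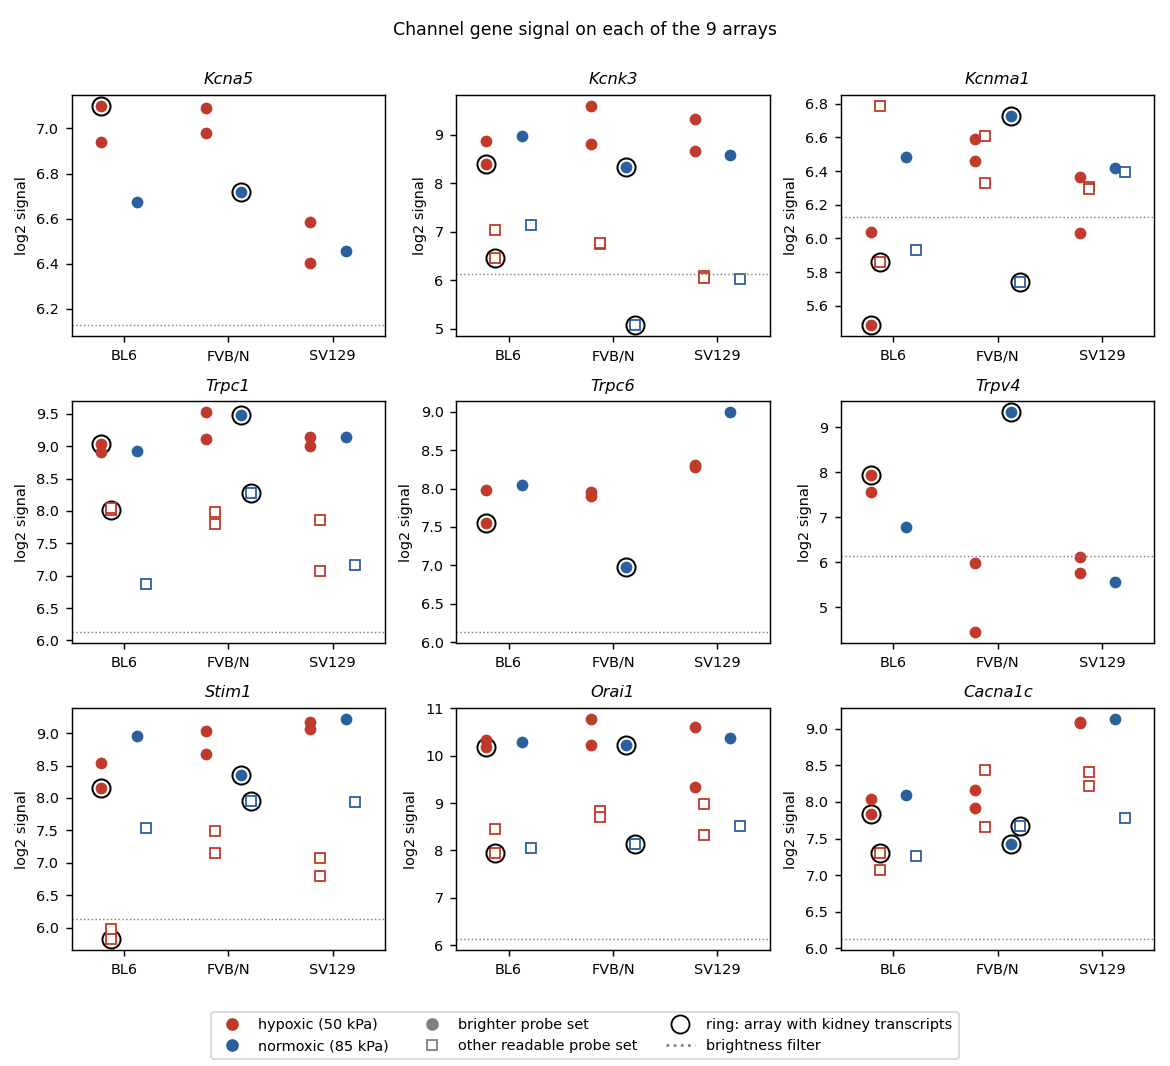
For each gene, the vertical axis is the log2 signal on each of the 9 arrays by strain, with the hypoxic arrays left of the normoxic one; filled circles are the brighter probe set, open squares the other readable one, and vertical scales differ between panels. The ringed normoxic FVB/N array is far from the hypoxic FVB/N arrays for Trpv4 and Trpc6, and all 3 SV129 arrays are above the others for the brighter Cacna1c probe set.

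No probe set of the TRP channels passed the threshold for hypoxia across strains. Trpc1 encodes a subunit of receptor- and store-operated cation channels in smooth muscle. Its brighter probe set 1421096_at was at 9.03 and 8.91 on hypoxic against 8.92 on normoxic BL6 arrays, at 9.52 and 9.10 against 9.49 in FVB/N, and at 9.0 and 9.14 against 9.15 in SV129. This was the steadiest of the members' brightest probe sets, with a range of 0.610 over the 9 arrays and a hypoxia change of -0.07 ± 0.150 (95% interval -0.40 to 0.27). The other probe set, 1421095_a_at, was at 8.02 and 8.05 on hypoxic against 6.87 on normoxic BL6 arrays, at 7.80 and 7.98 against 8.27 in FVB/N, and at 7.85 and 7.07 against 7.16 in SV129. It was thus higher on both hypoxic arrays in BL6 (1.16 ± 0.380, adjusted p = 0.287 in the 6-group limma model) and lower on both in FVB/N (-0.38 ± 0.380), and neither change passed the threshold.

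Trpc6 encodes a diacylglycerol-activated cation channel that mice need for acute hypoxic vasoconstriction. Its 1 probe set was at 7.55 and 7.99 on hypoxic against 8.05 on normoxic BL6 arrays, at 7.91 and 7.96 against 6.97 in FVB/N, and at 8.29 and 8.30 against 8.99 in SV129. The hypoxic arrays were above the normoxic one in FVB/N and below it in BL6 and SV129. The average over strains was -0.01 ± 0.282 (95% interval -0.64 to 0.63), made of 0.96 ± 0.302 in FVB/N (adjusted p = 0.0976), -0.28 ± 0.302 in BL6 and -0.70 ± 0.302 in SV129. Without the 2 arrays with kidney transcripts the change across the remaining arrays was -0.43 ± 0.228 (adjusted p = 0.411). The 12 smooth muscle markers, all readable, had means of 9.81 to 10.50 on hypoxic and 9.23 to 10.18 on normoxic arrays. The lowest Trpc6 value stood on the normoxic FVB/N array. That array also had the lowest mean of these markers and of the other lung lists named above. The part of cell content in the Trpc6 value was not tested.

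Trpv4 encodes a calcium-permeable channel opened by stretch, osmotic change and lipid mediators, present in endothelium and smooth muscle and known also from kidney tubules. It had the widest range of the members, 4.88 on the log2 scale. It was at 7.93 and 7.57 on hypoxic against 6.79 on normoxic BL6 arrays, at 5.99 and 4.44 against 9.32 in FVB/N, and at 5.76 and 6.12 against 5.56 in SV129. The highest 2 values were those of the normoxic FVB/N array and of hypoxic BL6 array 2, the arrays with kidney transcripts. All 5 other arrays of FVB/N and SV129 were below the brightness filter, while the BL6 arrays without kidney transcripts, at 7.57 and 6.79, were above it. The change across strains was -0.92 ± 0.817 (95% interval -2.76 to 0.92).

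The store-operated pair gave the single call among the members for hypoxia across strains, in the dimmer of the Stim1 probe sets. Stim1 encodes the calcium sensor of the endoplasmic reticulum that, when stores empty, gathers under the plasma membrane and opens the channel formed by Orai1. The probe set 1436945_x_at was at 5.82 and 5.98 on hypoxic against 7.53 on normoxic BL6 arrays, at 7.48 and 7.15 against 7.95 in FVB/N, and at 7.08 and 6.80 against 7.93 in SV129. The 6 hypoxic values, with a mean of 6.72 ± 0.672 (SD, n = 6), did not overlap the 3 normoxic values, with a mean of 7.80 ± 0.238 (SD, n = 3), as was so for 10.7% of all readable probe sets. Its signal fell with hypoxia by 1.09 ± 0.225 (SE; 95% interval -1.60 to -0.58), which is 2.13-fold lower, at a limma adjusted p of 0.0383. The call was lost when any of 7 of the 9 arrays was left out, with an adjusted p of up to 0.173 without the normoxic BL6 array, and when both arrays with kidney transcripts were left out (-1.24 ± 0.274, adjusted p = 0.0822, with 0.844% of all called there). The change itself stayed between -1.32 and -0.82 over the 9 omissions.

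The brighter Stim1 probe set, 1448320_at, did not share this fall. It was at 8.16 and 8.54 on hypoxic against 8.95 on normoxic BL6 arrays, at 9.03 and 8.68 against 8.36 in FVB/N, and at 9.17 and 9.06 against 9.21 in SV129. Its change was -0.07 ± 0.215 (95% interval -0.55 to 0.42), and this interval does not reach the interval of the other probe set. In the naming used by the array's maker, the ending _x_at marks a probe set with some probes that also match other sequences.

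Orai1, the pore that Stim1 opens, did not pass the threshold for hypoxia with either probe set. Its brighter probe set 1424990_at was at 10.19 and 10.34 on hypoxic against 10.28 on normoxic BL6 arrays, at 10.23 and 10.77 against 10.24 in FVB/N, and at 10.61 and 9.34 against 10.37 in SV129. The change was -0.05 ± 0.272 (95% interval -0.67 to 0.56), and the 2 hypoxic SV129 arrays lay on opposite sides of the normoxic one, array 5 the lowest of the 9. The other probe set, 1424989_at, was at 7.94 and 8.45 against 8.04 in BL6, at 8.83 and 8.72 against 8.13 in FVB/N, and at 8.33 and 8.98 against 8.52 in SV129, a change of 0.31 ± 0.208 (95% interval -0.16 to 0.78).

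The promoters of Orai1 and Kcna5 are shown because hypoxia-inducible factor, the main transcriptional sensor of low oxygen, binds a core of ACGTG or GCGTG, and these members differ in holding it. Each run is the 250 bases before the gene's start in RefSeq, build GRCm38.p6, written 5′ to 3′ on the gene's strand, and both windows lie wholly outside the annotated gene. Capitals mark GCGTG or its complement CACGC. The Orai1 window is chr5:123014824-123015073 on the + strand, and the Kcna5 window is chr6:126535556-126535805 on the - strand.
Orai1: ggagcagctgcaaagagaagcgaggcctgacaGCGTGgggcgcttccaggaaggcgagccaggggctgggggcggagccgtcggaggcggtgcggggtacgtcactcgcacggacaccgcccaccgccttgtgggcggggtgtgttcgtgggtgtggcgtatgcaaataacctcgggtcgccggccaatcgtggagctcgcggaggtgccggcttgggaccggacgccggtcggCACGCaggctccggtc
Kcna5: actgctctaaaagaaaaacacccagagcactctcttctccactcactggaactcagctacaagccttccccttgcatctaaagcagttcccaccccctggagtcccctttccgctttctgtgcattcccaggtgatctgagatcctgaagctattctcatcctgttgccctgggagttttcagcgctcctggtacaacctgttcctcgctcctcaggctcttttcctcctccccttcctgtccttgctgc
The Orai1 window held GCGTG 2 times, and the Kcna5 window held neither core on either strand. Of 10 windows that the table has for 8 of the members, 4 held ACGTG or GCGTG on either strand (those of Trpc6, Stim1, Orai1 and 1 of the 3 starts of Cacna1c), or 40%. Over all 32851 windows of the same length the share was 38.6%, so the members' share was near the background. The CArG box, the motif of serum response factor in smooth muscle genes, was found in 1 of the 10 windows, that of Trpc6, and in 1.47% of all windows. Unlike that of Orai1, the windows of Trpc6, Stim1 and Cacna1c lie wholly inside the annotated gene. The brightest probe sets of Orai1 and Kcna5 changed by -0.05 and 0.23 with hypoxia, and neither passed the threshold.

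Cacna1c was the member with calls between strains. It encodes Cav1.2, the pore of the L-type channel through which depolarisation lets calcium into vascular smooth muscle and heart muscle. Its brighter probe set 1421297_a_at was at 7.84 and 8.04 on hypoxic against 8.10 on normoxic BL6 arrays, at 8.17 and 7.92 against 7.42 in FVB/N, and at 9.09 and 9.08 against 9.13 in SV129. In BL6 and SV129 the hypoxic arrays were slightly below the normoxic one, and in FVB/N both were above it (0.62 ± 0.277, adjusted p = 0.208). The change across strains was 0.14 ± 0.185 (95% interval -0.28 to 0.56). Between strains, the means were 7.99 ± 0.136 in BL6 and 7.84 ± 0.378 in FVB/N against 9.10 ± 0.026 in SV129 (SD, n = 3 each), and no BL6 or FVB/N array reached the SV129 range. Neither BL6 nor FVB/N overlapped SV129, in either direction, for 4 of the 15 readable member probe sets, the others being Kcna5, Trpc6 and Stim1 1448320_at, and for 8% of all readable probe sets.

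Across strains, few of the channel probe sets passed the threshold for hypoxia, which does not show that the rest were unchanged. Of the 15 readable member probe sets 1 was called, the Stim1 probe set that fell, against 1016 of all 27022 readable probe sets (3.76%, with 1.82% lower and 1.94% higher) at an adjusted p below 0.05 in limma. The Stim1 probe set was also the sole member with an unadjusted p below 0.05, a level reached by 22.2% of all. One call of 15 is too few to set apart from the background share. The median change was 0.14 over the members and 0.04 over all readable probe sets, and 8 members were above 0 and 7 below. For 3 of the 6 genes with a pair of readable probe sets (Kcnk3, Stim1 and Cacna1c) both had the same sign. The 95% intervals of the brightest probe sets of Kcna5, Kcnk3, Kcnma1, Trpc1, Trpc6, Stim1, Orai1 and Cacna1c all lay between -0.91 and 0.95. Those of the other readable probe sets reached further, to -1.60 for Stim1 1436945_x_at, 1.27 for Kcnk3 1426058_a_at and 1.01 for Trpc1 1421095_a_at.

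**Figure D3:**
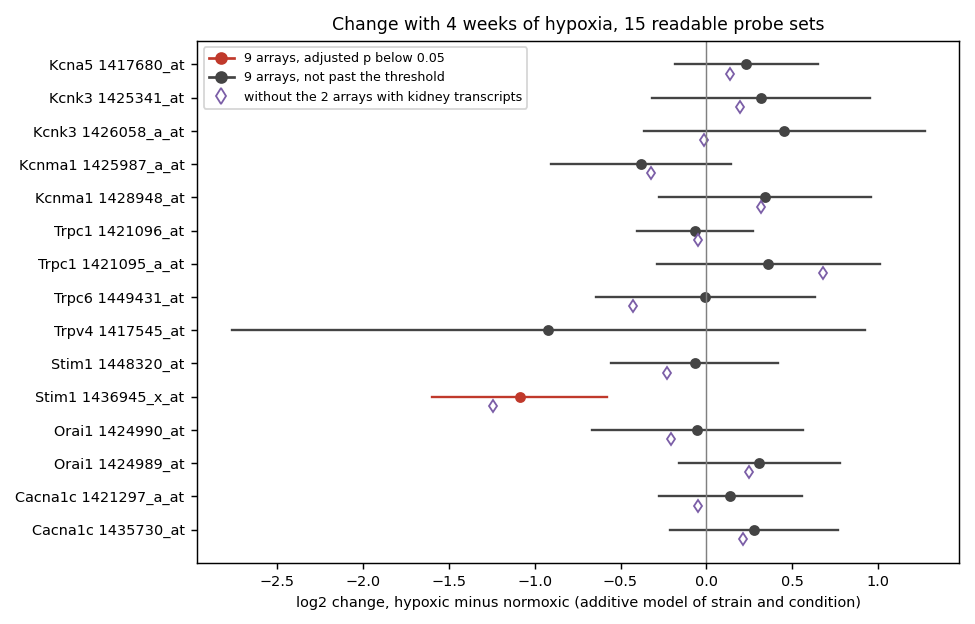
The horizontal axis is the log2 change, hypoxic minus normoxic, in the additive model of strain and condition; dots with lines are estimates and 95% intervals over 9 arrays, and diamonds are estimates without the 2 arrays with kidney transcripts (none for Trpv4, too dim there). The Stim1 probe set 1436945_x_at at -1.09 is the one past the threshold, and the interval of Trpv4 runs from -2.76 to 0.92.

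Taken strain by strain, the members differed from normoxia past the threshold once, and on the array with kidney transcripts. In FVB/N 1 of 15 members was called, against 6.8% of all readable probe sets (3.85% lower). It was Trpv4, at 5.99 and 4.44 on hypoxic against 9.32 on the single normoxic FVB/N array, with a fitted change of -4.11 ± 0.622 (limma adjusted p = 0.0270). Both hypoxic values lie below the brightness filter, so the size is a bound. Set against the filter of 6.13 in their place, Trpv4 was at least 9.17-fold lower on the hypoxic arrays, and it passed the filter only through the arrays on which it was high. Without that array no FVB/N comparison exists, and hypoxia and the kidney transcripts cannot be told apart here. In the same strain Kcnk3 1426058_a_at changed by 1.69 ± 0.411 just outside the threshold (adjusted p = 0.0522), with the low value, under the filter, on that array.

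In BL6 no member passed, against 0.0148% of all, and 2 of the 15 had an unadjusted p below 0.05 in limma (12.5% of all). These were Stim1 1436945_x_at, at -1.63 ± 0.347 (adjusted p = 0.130), and Trpc1 1421095_a_at, at 1.16 ± 0.380. Both hypoxic BL6 values of the Stim1 probe set lie below the brightness filter. In SV129 no member and no probe set of any gene passed (0%), and 1 member had an unadjusted p below 0.05 (7.58% of all), again Stim1 1436945_x_at at -0.995 ± 0.347. The test of a difference in response between strains called none of the 15 members and none of all readable probe sets (0%). Unadjusted, 3 members (20%) had an interaction p below 0.05, against 12.3% of all, and they were Trpv4 (adjusted p = 0.213), Trpc6 (0.265) and Kcnk3 1426058_a_at (0.296). For these 3 the normoxic FVB/N array held the highest or lowest of the 9 values. Trpv4 passed the brightness filter only through the arrays with kidney transcripts, so its place in this count rests on them. The strain models take their spread from the 3 pairs of hypoxic arrays alone, with the lone normoxic arrays assumed to vary like them.

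**Figure D4:**
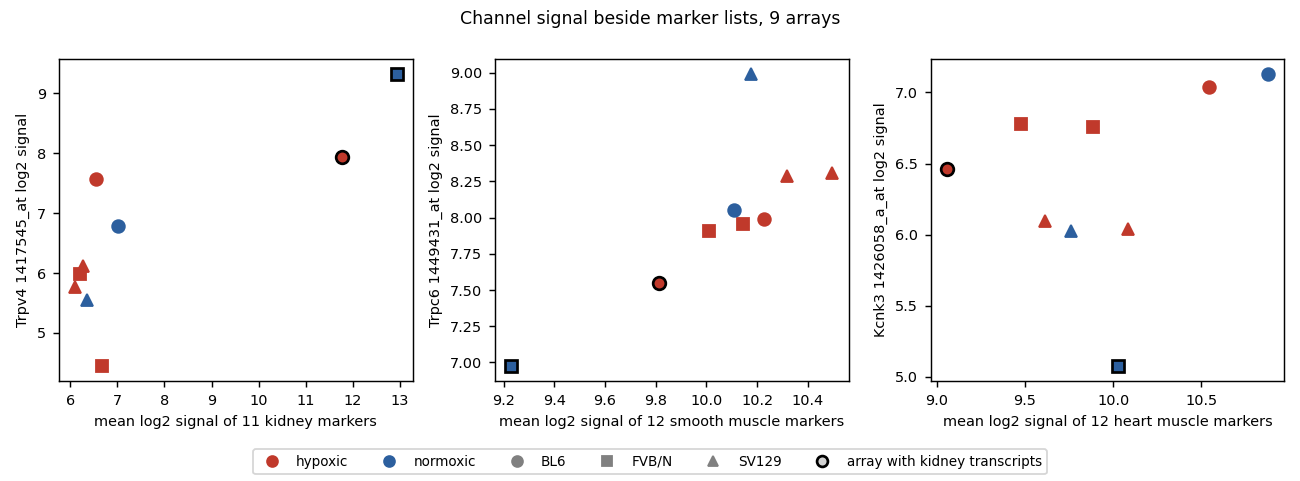
Each panel sets the log2 signal of a channel probe set (vertical axis) against the mean log2 signal of a marker list (horizontal axis) on the 9 arrays: Trpv4 beside 11 kidney markers, Trpc6 beside 12 smooth muscle markers and Kcnk3 1426058_a_at beside 12 heart muscle markers. The 2 arrays with kidney list means of 11.78 and 12.93 have the highest Trpv4 values, and the normoxic FVB/N array, lowest in this list at 9.23 as in other lung lists, has the lowest Trpc6 value.

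Between strains, Cacna1c was lower in both BL6 and FVB/N than in SV129. For BL6 minus SV129, 1 of 15 members was called, lower in BL6, against 2.51% of all (1.16% lower). It was Cacna1c 1421297_a_at, with a difference of -1.11 ± 0.213 (95% interval -1.59 to -0.63, 2.15-fold, limma adjusted p = 0.0299). For FVB/N minus SV129, 1 of 15 was called, against 2.89% of all (1.83% lower), again Cacna1c 1421297_a_at at -1.26 ± 0.213 (95% interval -1.74 to -0.78, 2.40-fold, adjusted p = 0.0153). Both calls held without the 2 arrays with kidney transcripts, at -1.04 ± 0.201 for BL6 minus SV129 (adjusted p = 0.0428, with 2.06% of all called) and -1.04 ± 0.209 for FVB/N minus SV129 (adjusted p = 0.0475, with 2.15% of all called). With single arrays left out, the BL6 difference stayed between -1.26 and -0.999 and passed in 2 of 9 omissions, and the FVB/N difference stayed between -1.41 and -1.02 and passed in 6 of 9. Both comparisons share the SV129 arrays.

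The other Cacna1c probe set, 1435730_at, showed the first of these differences less clearly and the second hardly. It was at 7.30 and 7.07 on hypoxic against 7.26 on normoxic BL6 arrays, at 8.43 and 7.66 against 7.67 in FVB/N, and at 8.22 and 8.40 against 7.79 in SV129. No BL6 array reached the range of SV129, as was so in either direction for 21.7% of all readable probe sets, while FVB/N overlapped SV129. The differences were -0.93 ± 0.250 for BL6 minus SV129 (adjusted p = 0.104) and -0.21 ± 0.250 for FVB/N minus SV129 (adjusted p = 0.713), with a hypoxia change of 0.28 ± 0.217.

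For BL6 minus FVB/N none of the 15 members passed, against 2.07% of all, and 3 had an unadjusted p below 0.05 in limma (11.9% of all). The nearest to the threshold was Stim1 1436945_x_at, at -1.09 ± 0.260 (adjusted p = 0.0795), which is lowest, and below the brightness filter, on the hypoxic BL6 arrays. The others were Cacna1c 1435730_at at -0.71 ± 0.250 and Trpc1 1421096_at at -0.42 ± 0.173. Trpc6 averaged 7.86 ± 0.273 in BL6 and 7.61 ± 0.556 in FVB/N, against 8.53 ± 0.403 in SV129 (SD, n = 3 each), with differences of -0.67 ± 0.326 for BL6 minus SV129 and -0.91 ± 0.326 for FVB/N minus SV129 that missed the threshold (adjusted p = 0.364 and 0.207).

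**Figure D5:**
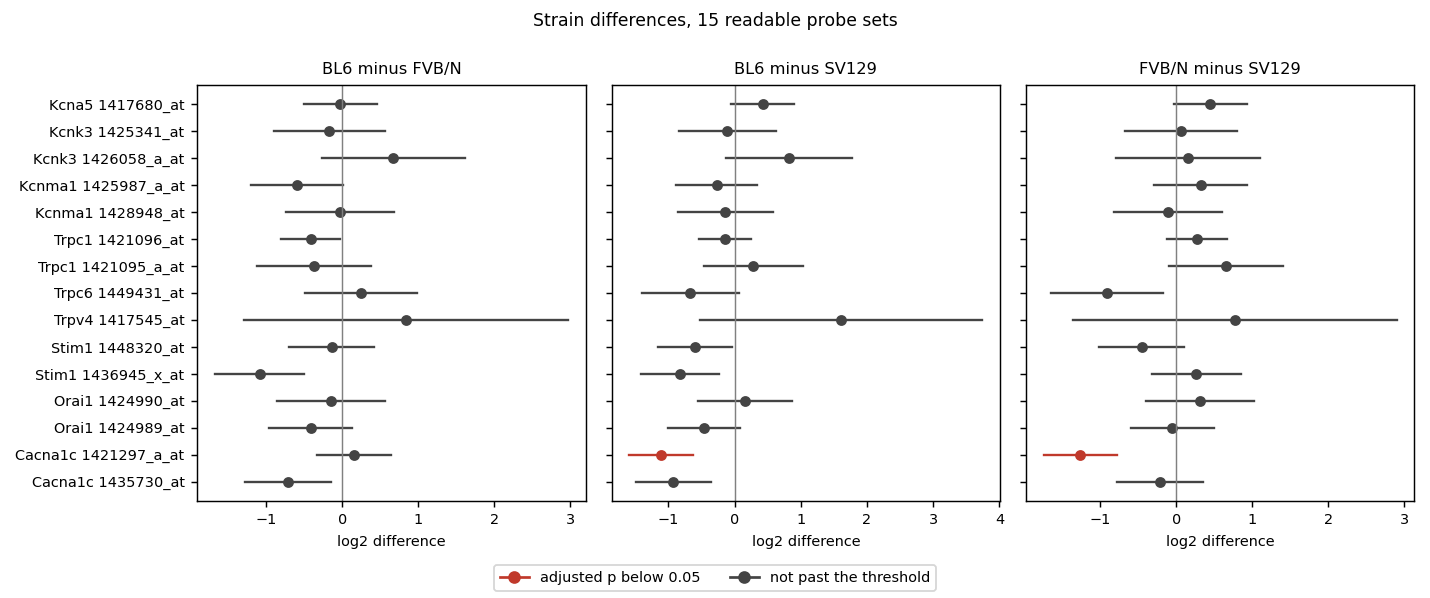
The horizontal axes are log2 differences between strains for the 15 readable probe sets, with dots for the estimates of the additive model and lines for 95% intervals. The estimates past the threshold are those of Cacna1c 1421297_a_at, at -1.11 for BL6 minus SV129 and -1.26 for FVB/N minus SV129.

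Other channel and calcium handling genes of the lung were read from 4 lists with 66 genes, of which 60 had a probe set with 1 symbol and 44 a readable one, each gene represented by its brightest. Across strains 1 of the 44 rose with hypoxia and 2 fell, and the other 41 did not pass. Of all readable probe sets 3.76% passed (1.94% higher and 1.82% lower). None of 18 readable potassium channels passed, and none of 4 voltage-gated calcium channel subunits. Piezo2, a mechanosensitive cation channel, rose by 1.09 ± 0.184 (limma adjusted p = 0.0211). It was at 8.82 and 8.82 on hypoxic against 8.09 on normoxic BL6 arrays, at 9.10 and 8.66 against 7.46 in FVB/N, and at 9.32 and 9.60 against 8.34 in SV129. The groups did not overlap, as was so for 10.7% of all readable probe sets. The call held in 6 of 9 single-array omissions and was lost when both arrays carrying kidney transcripts were set aside (0.95 ± 0.231, adjusted p = 0.101), and another Piezo2 probe set changed by 0.11 ± 0.340.

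Trpm7, a channel with a kinase domain that carries magnesium and calcium, fell by 0.78 ± 0.158 (adjusted p = 0.0344). It was at 9.81 and 9.85 on hypoxic against 11.02 on normoxic BL6 arrays, at 10.16 and 10.16 against 10.54 in FVB/N, and at 10.03 and 10.11 against 10.85 in SV129. This fall was not shared by 3 other Trpm7 probe sets, which changed by 0.02 to 0.06, and the call held in 2 of 9 omissions. It was lost when both arrays carrying kidney transcripts were set aside (-0.95 ± 0.173, adjusted p = 0.0540). Clcn3, a chloride and proton exchanger, fell by 0.99 ± 0.208 (adjusted p = 0.0391), with the call held in 1 of 9 omissions and lost when both arrays carrying kidney transcripts were set aside (-0.71 ± 0.226, adjusted p = 0.187). Direct partners of the members did not pass. Kcnmb1, the smooth muscle subunit of the Kcnma1 channel, changed by -0.01 ± 0.200, Stim2 by -0.29 ± 0.209, Orai2 by 0.29 ± 0.179, Orai3 by -0.35 ± 0.281, Cacna2d1 by 0.06 ± 0.189 and Cacnb2 by 0.72 ± 0.240. Trpc4 was too dim (4.70).

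Saraf, the protein that damps store-operated calcium entry by acting on Stim1, separated the strains. It was at 13.15 and 13.23 on hypoxic and 12.89 on normoxic BL6 arrays, at 13.36 and 13.25 on hypoxic and 12.77 on normoxic FVB/N arrays, and at 12.35 and 12.46 on hypoxic and 12.16 on normoxic SV129 arrays. Every BL6 and FVB/N array was above every SV129 array. Neither strain overlapped SV129, in either direction, for 8% of all readable probe sets. The differences were 0.77 ± 0.117 for BL6 minus SV129 (adjusted p = 0.0106, held in 8 of 9 omissions) and 0.80 ± 0.117 for FVB/N minus SV129 (adjusted p = 0.00748, held in 9 of 9). No other gene of the lists passed for BL6 minus SV129, so 1 of 44 was called there, against 2.51% of all readable probe sets. For FVB/N minus SV129, Kcnmb4, a subunit of the Kcnma1 channel, was lower in FVB/N (-1.18 ± 0.253, adjusted p = 0.0432), as was Ano1, a calcium-activated chloride channel (-0.95 ± 0.207, adjusted p = 0.0458), each held in 2 of 9 omissions. Both of these calls were lost when the arrays carrying kidney transcripts were set aside (Kcnmb4 -0.98, adjusted p = 0.140, and Ano1 -1.005, adjusted p = 0.0743), while those of Saraf held (adjusted p = 0.0151 and 0.00986). For FVB/N minus SV129 3 of the 44 were thus called, against 2.89% of all readable probe sets. None of the 44 passed for BL6 minus FVB/N, against 2.07% of all.

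The members with the widest ranges were compared with all other readable genes by the root mean square difference of mean-centred log2 signals over the 9 arrays. Among 12894 genes, those closest to Trpv4 were Mfsd4a (0.399), Phyhipl (0.556) and Cmbl (0.588). Closest to Trpc6 were Cecr2 (0.162), Rasgef1a (0.211) and Tsks (0.212). Genes chosen this way share the members' highest and lowest arrays by construction.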

How the data were processed

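Biotin-labelled RNA of whole right lung was hybridised to 9 arrays, per the labels' protocols. One table held the deposited intensity of each probe set on a linear scale. As read from the values, the authors had brought the intensity of every array to a 2% trimmed mean of 500, with software not given in the sources used. Another 12 arrays mentioned in the series' design text were not analysed here, nor were raw probe values, detection calls or scan dates. Precision is limited by how few arrays there are.

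The 64 control probe sets were left out of 45101, signals were transformed as log2(signal + 16), which understates the change of dim probe sets, and arrays were quantile normalized, since their medians ran from 6.76 to 6.99. The dimmest 40% by mean were then left out, which left 27022. Symbols came from the platform's annotation (34945 probe sets with 1 symbol, 932 with several, 9160 with none), and 99.11% of gene identifiers matched a current table, with 0 symbols changed. Tests used limma 3.58.1 under R 4.3.3 (lmFit, eBayes with trend), with Benjamini-Hochberg adjustment over all 27022 and a threshold of 0.05. An additive model with terms for strain and pressure over 9 arrays gave hypoxia across strains and the strain differences (5 residual degrees of freedom). Single strains and the interaction F test came from a 6-group model (3 residual degrees of freedom). The fits were tested on simulated data. For hypoxia across strains they recovered 33 of 100 probe sets changed by 1 and 77 of 100 changed by 2. For BL6 minus FVB/N they recovered 14 and 72 of 100. False calls numbered 7 for hypoxia and 6 for BL6 minus FVB/N, over 27022 simulated probe sets. Every member probe set is described, each gene is represented by its brightest, the named partner genes and all listed genes past the threshold are given, and the 3 genes of closest pattern are named for the 2 members of widest range. The members, lists, tests and settings were chosen with earlier results of these data known.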

Additional observations from a re-analysis of the deposited data

How the results depend on the processing

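Over 2248 member results recomputed under other settings, 2213 kept their direction or stayed uncalled on the same side of the threshold, 26 lost a call, 9 gained one and none of the called ones reversed. For hypoxia across strains the member count of 1 became 0 without the brightness filter (Stim1 1436945_x_at, adjusted p = 0.0644), 0 with the dimmest 60% left out, which removes that probe set and leaves 8 members, and 0 without the 2 arrays with kidney transcripts, and it was 0 to 1 with single arrays left out. For hypoxia in FVB/N the count of 1 became 0 with the other probe sets in place of the brightest and 0 with the 60% filter, neither of which includes Trpv4, and 0 without the intensity trend (Trpv4, adjusted p = 0.0580). It became 2 with a pseudocount of 1, with robust moderation and with array weights, which added Kcnk3 1426058_a_at (adjusted p = 0.0377 to 0.0488), and was 0 to 2 with single arrays left out. For BL6 minus FVB/N the count of 0 became 1 with array weights (Stim1 1436945_x_at, adjusted p = 0.00480) and was 0 to 2 with single arrays left out. Without the normoxic FVB/N array the 2 were that probe set (adjusted p = 0.0438) and Trpv4 (adjusted p = 0.0282), of which both remaining FVB/N values lie below the brightness filter. For BL6 minus SV129 and for FVB/N minus SV129 the count of 1, Cacna1c 1421297_a_at, became 0 with the other probe sets, 0 on the 6 hypoxic arrays alone (-1.16, adjusted p = 0.0585, and -1.06, adjusted p = 0.0783) and 0 to 1 with single arrays left out. For FVB/N minus SV129 it became 2 in the 6-group model, which added Trpc6 (-1.19, adjusted p = 0.0274). The cause of these moves was not tested. Array numbers gave no sign of pairing the samples: the correlations of the hypoxic arrays' differences between strains were -0.19 to -0.03 over probe sets. The hypoxic arrays are numbered 2 and 5 in BL6 and SV129 but 2 and 6 in FVB/N, so the second numbers do not all match. Every normoxic array has number 1, which no hypoxic array has. Number and pressure thus cannot be told apart, and a replicate block was fitted for the strain differences alone. With the array number as a replicate block the counts for BL6 minus SV129 and FVB/N minus SV129 were 0 (Cacna1c, -1.11, adjusted p = 0.117, and -1.30, adjusted p = 0.149). Over all readable probe sets, the 1016 calls for hypoxia across strains ran from 3, without the normoxic SV129 array, to 1871 with array weights, and were 582 without the filter and 1606 in the 6-group model. Centring each array on its median gave 1440, of which 71.3% were higher, against 51.7% of the 1016, and moved the median change of all probe sets to 0.11, while no member call changed. The 1837 calls in FVB/N ran from 0 to 3843, the 4 in BL6 from 0 to 254 and the 0 of the interaction from 0 to 607. The strain counts ran from 187 to 2199 for BL6 minus FVB/N (560), 201 to 1291 for BL6 minus SV129 (678) and 181 to 1203 for FVB/N minus SV129 (780), with 74%, 54% and 37% of them higher. With 1 normoxic array a strain, a change in 1 strain rests on that array.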

Other observations

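In FVB/N, 8 of the 44 readable genes of the channel and calcium handling lists passed the threshold for hypoxia (limma, 6.8% of all readable probe sets). Piezo1, the mechanosensitive channel of endothelium (1.06 ± 0.232), Piezo2 (1.43 ± 0.297), the L-type pore Cacna1d (1.97 ± 0.431) and the calcium channel subunit Cacnb2 (1.46 ± 0.316) were higher. The leak channel Kcnk5 (-2.74 ± 0.527), the skeletal muscle calcium release channel Ryr1 (-2.24 ± 0.491), the calcium-sensing receptor Casr (-2.40 ± 0.520, with both hypoxic values under the brightness filter) and Clcn3 (-1.55 ± 0.268) were lower. All rest on the single normoxic FVB/N array, which carried kidney and muscle transcripts, and hypoxia cannot be told apart from these. Over all omissions the changes ran from -2.81 to -2.66 for Kcnk5, 1.41 to 1.51 for Cacnb2, 0.85 to 1.27 for Piezo1 and 1.20 to 1.65 for Piezo2. They ran from 1.75 to 2.18 for Cacna1d, -2.49 to -1.98 for Ryr1, -2.63 to -2.15 for Casr and -1.81 to -1.30 for Clcn3. All 8 kept their direction when either hypoxic FVB/N array was left out. None of the 8 then passed, nor did any other readable probe set (0 calls in limma in each omission, with an unadjusted p below 0.05 for 4853 without array 2 and 5248 without array 6).

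The normoxic FVB/N array held the highest or the lowest value of the 9 for 9 of the 15 readable member probe sets (60%), the lowest for 5 and the highest for 4. Over all readable probe sets it did so for 40.8%.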
